A study of Homo sapiens with 6 samples.

Results

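The genes described here are the forkhead box (FOX) and SRY-related HMG-box (SOX) transcription factors, taken by symbol from a table of read counts per gene. Of 68 matching symbols among the 26485 gene names, *FOXM1* being left out by definition, 43 had at least 10 counts in each culture and are the members, 30 of them FOX and 13 SOX genes. The counts come from 6 cultures of HEK293, an established line of human embryonic kidney cells. In 3 cultures the long noncoding RNA *HSALNG0134318*, which lies in the 22q11.2 interval, was targeted by transient transfection of a Smart Silencer, a mix of small interfering RNAs and antisense oligonucleotides, carried by Lipofectamine RNAiMAX. The other 3 are controls, labelled NC (negative control in the notes of the study) in the description and WT in the genotype, for which the sources used here do not name a transfected agent. The cultures carry the numbers 1, 4 and 5 (knockdown replicates 1, 2 and 3) and 10, 11 and 1 (control replicates 1, 2 and 3). All cultures are of a single cell line, and the level of *HSALNG0134318* itself was not analysed here.

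FOX proteins bind DNA through the forkhead domain, a winged helix, and SOX proteins through the HMG box, which lies in the minor groove and bends the DNA. Both families set cell identity during development and are sorted by sequence into lettered subfamilies, whose members often bind the same sites and can stand in for each other. In the developing kidney, *FOXC1* and *FOXC2* act in the mesoderm that forms the nephrons, *FOXD1* marks the stromal progenitors, and *SOX9* acts in the branching ureteric tips. The FOXO proteins are kept out of the nucleus when insulin and growth factor signals activate the kinase AKT.

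Sequencing depth was similar in all cultures, from 13900965 to 16869948 counts, and standard errors (SE) of the members' log2 fold changes ran from 0.09 for *FOXO3* to 0.64 for *SOX18*. Of 10 genes that HEK293 cells are known to express, 9 had at least 10 counts in each culture, *LHX1*, *PAX2*, *EYA1* and *SALL1* among them, while *PAX8* had from 2 to 6. Of 5 blood cell markers, *CD3E* and *HBB* had no counts, and the 5 together had from 0.472 to 1.58 CPM (counts scaled to library size). The 5 fibroblast markers together had from 43.96 to 64.53 CPM in the knockdown and from 39.95 to 53.83 in the control cultures. The 5 endothelial markers together had from 2.77 to 4.88 against 6.14 to 6.65 CPM, most of it from 1 gene, *KDR*. *KDR* had 62, 32 and 51 counts in the knockdown and 91, 97 and 85 in the control cultures. It was lower in the knockdown group (log2 fold change -0.85, edgeR adjusted p 0.0438). *PECAM1*, *CDH5*, *VWF* and *TEK* had from 0 to 9 counts per culture and were not tested. The part of these marker genes in the results was not tested. In bulk RNA, fewer cells with a transcript and less of it per cell cannot be told apart.

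The control group was not uniform for these families. Control replicate 2 had the highest normalized count of the 6 cultures in 18 of 43 members (41.86%), against 26.98% of all genes tested, and it lay at least 1.5-fold above the mean of the other 2 controls in 12 members (27.91%, against 8.55% of 14465 genes with known base composition). The members are rich in G and C: the longest transcript had a median GC content of 56.9% (34.4% to 70.6%), against 48.1% over those 14465 genes, and 13 of 43 had a single exon (30.2%, against 4.96%). Across the 43 members, the ratio of control replicate 2 to the other controls had a Spearman's rho of 0.73 with GC content, against 0.54 across the 14465 genes. Genes are not independent replicates, and all points share the same 3 libraries. Because of this, values without control replicate 2 stand beside those results whose direction or call changed.

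**Figure D1:**
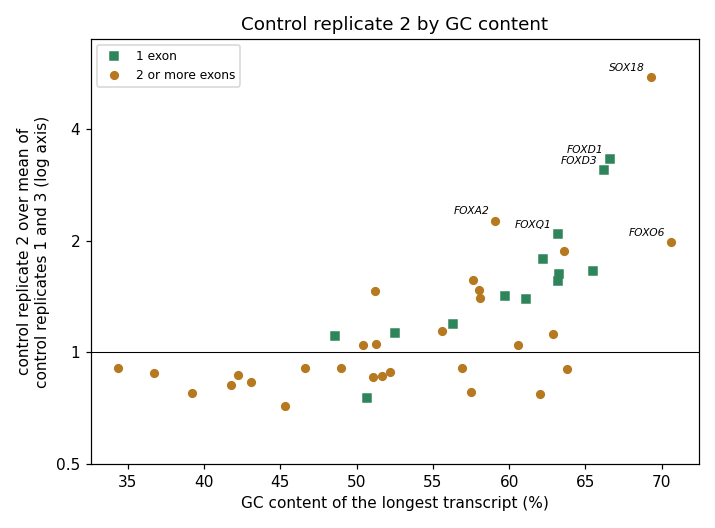
Each point is 1 of 42 FOX and SOX genes, with the GC content of its longest transcript in percent on the horizontal axis and, on a log axis, its normalized count in control replicate 2 divided by the mean of control replicates 1 and 3. Squares are genes with 1 exon. Of the 10 members under 50% GC, *SOX11* (1.10) lies above 1, while *SOX18*, *FOXD1* and *FOXD3* lie above 3.

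Levels were compared between genes only per length, as RPKM, the count divided by the length of all annotated exons and by the library size. *SOX4* was the most abundant SOX gene, at 82.2 ± 11.5 RPKM in control and 59.5 ± 5.43 in knockdown cultures (SD, n = 3 each). *FOXC1* was the most abundant FOX gene, at 47.7 ± 6.57 and 47.1 ± 7.18 RPKM, below the range of *SOX4* in the controls. In the control cultures, *FOXO3* (20.1 ± 1.03 RPKM), *FOXF2* (18.4 ± 7.37) and *FOXK2* (17.5 ± 1.503) came next, and these 3 neighbours did not differ beyond their spread. At the other end, *SOX8* had 0.469 and *SOX6* 0.766 RPKM in control cultures. Long genes with many transcript forms, such as *FOXP1* with 32800 bases of annotated exons, are understated on this scale.

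**Figure D2:**
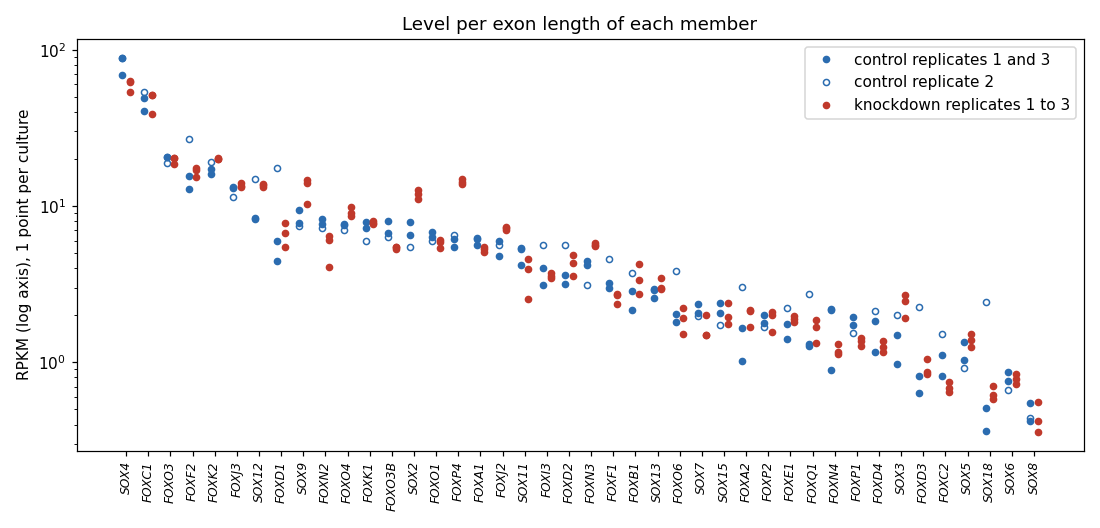
Level of 42 members in RPKM on a log axis, ordered by the control mean, with 1 point for each culture. *SOX4* and *FOXC1* lead, the knockdown points of *FOXP4* and *SOX2* stand above all their control points, and the open circles of control replicate 2 lie far above the other controls in *FOXD1*, *FOXD3* and *SOX18*.

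The comparison asks which of these factors changed when *HSALNG0134318* was silenced. Of the 43 members, 5 were higher in the knockdown cultures (*FOXP4*, *SOX2*, *SOX9*, *FOXN3* and *FOXJ2*) and 1 was lower (*SOX4*). A gene was called where the quasi-likelihood test of edgeR gave an adjusted p under 0.05. The model was fitted on the 14877 genes that passed its filter on low counts and adjusted over all of them. Among all genes tested, 5.40% were called higher, 4.64% lower and 10% in either direction, beside 13.95% of the members, 10% of the FOX genes and 23.1% of the SOX genes. Groups without overlap, all 3 knockdown cultures above or below all 3 controls, were found in 15 of 43 members (34.9%) and in 32.2% of all genes tested, shares that lie close together. The median log2 fold change was -0.03 over the members and -0.02 over all genes tested. Without control replicate 2, 12 members were called, 8 higher and 4 lower (27.91%, against 16.65% of all genes tested), which included the same 6 genes together with *FOXK2*, *SOX3*, *SOX12*, *FOXN2*, *FOXO3B* and *FOXP1*.

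**Figure D3:**
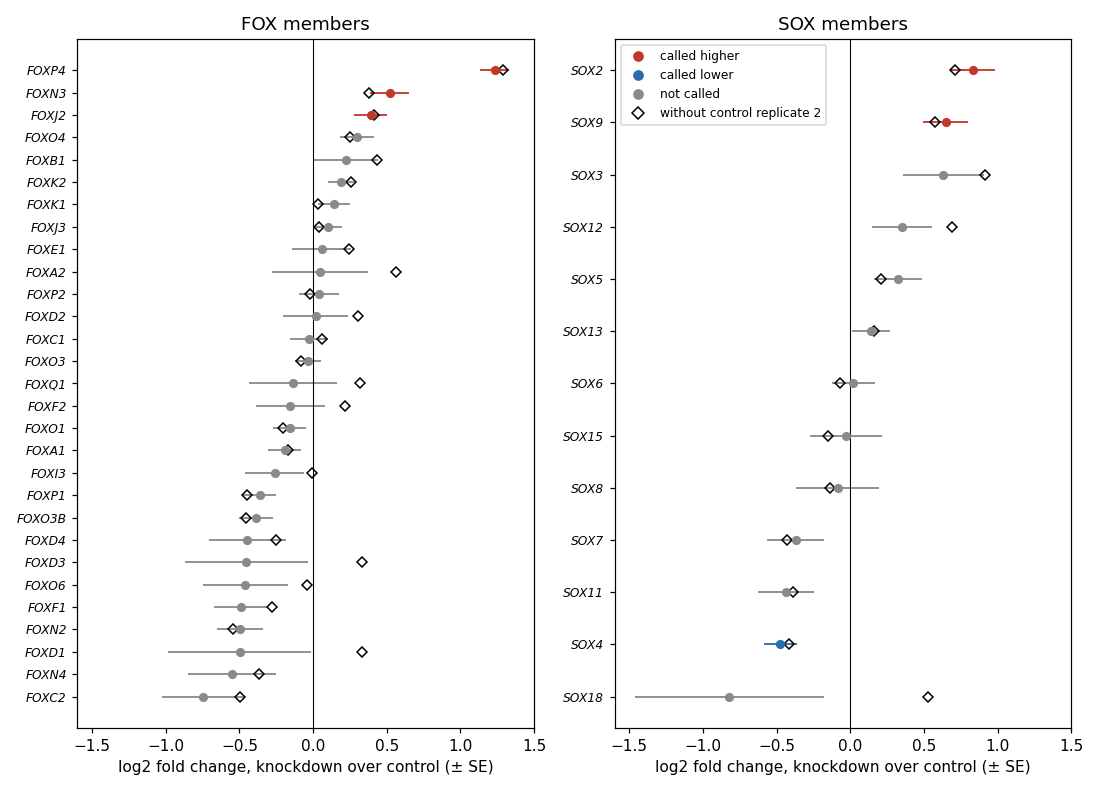
Log2 fold change of knockdown over control for 42 FOX and SOX members, with the standard error as a bar and the call as colour. Open diamonds give the same value without control replicate 2: those of *FOXD1*, *FOXD3*, *FOXQ1*, *FOXF2* and *SOX18* lie on the other side of 0.

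*FOXP4*, a transcriptional repressor that pairs with the other FOXP proteins, showed the largest change of all members. Normalized counts, scaled to the mean library size, were 1734, 1814 and 1663 in knockdown replicates 1, 2 and 3 and 664, 795 and 759 in control replicates 1, 2 and 3. Each knockdown culture had more than 2 times the count of each control culture. The means were 1737 ± 75.7 and 740 ± 67.7 (SD, n = 3), a 2.35-fold rise with a log2 fold change of 1.23 (SE 0.10, edgeR adjusted p 5.35e-05). The other expressed members of the subfamily did not pass the test. *FOXP1*, a repressor in blood, heart and lung development and one of the genes that the study lists for CAKUT, congenital malformations of kidney and urinary tract, had 626, 674 and 705 normalized counts in the knockdown and 958, 757 and 865 in the control cultures. The groups did not overlap, with a log2 fold change of -0.36 (SE 0.11, edgeR adjusted p 0.0674). This became -0.45 with an adjusted p of 0.00641 without control replicate 2. The protein-coding gene ENSG00000285708 overlaps *FOXP1* on the same strand over 624753 bases, so the assignment of its reads is uncertain. *FOXP2*, known for its part in speech and motor circuits, had 470 ± 70.1 and 457 ± 42.1 normalized counts and a log2 fold change of 0.04 (SE 0.14). Whether the changes of the FOXP genes differ from each other was not tested.

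*FOXP4* (ENSG00000137166.18) lies on the plus strand of chromosome 6, at chr6:41546381-41602384 in GENCODE release 44 on hg38, and its first 2241 bases overlap the antisense gene *FOXP4-AS1* (chr6:41452889-41548621, minus strand). *FOXP4-AS1* had 29, 34 and 28 counts in the knockdown and 8, 16 and 17 in the control cultures, without overlap between the groups. Its log2 fold change was 1.22 (SE 0.34, edgeR adjusted p 0.0432), and it lost its call under the DESeq2 Wald test (adjusted p 0.0637). The edgeR adjusted p was 0.0433 without control replicate 2, 0.0231 with the GC and length correction and 0.0409 with the replicate block. The fits without each other culture were not read for this gene. The strand setting of the authors' counting is not given in the sources used here, so reads of *FOXP4* and its antisense partner could not be separated where they overlap. Of the other transcripts named after or lying beside a FOX or SOX gene, *FOXD2-AS1*, *FOXD3-AS1*, *SOX21-AS1*, *FOXN3-AS1*, *FENDRR* and *FOXCUT* passed the filter on low counts. No call was made among them, and *SOX21* itself is not a member. Their log2 fold changes lay between -0.36 (*FOXD3-AS1*) and 0.20 (*FOXCUT*).

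The 250 bases before the annotated start of *FOXP4*, *SOX2* and *SOX4* are shown because these are the largest rise of each family and the only fall, and because the *FOXP4* window is also covered by *FOXP4-AS1*. They are RefSeq sequences on GRCh38.p14, read on the plus strand at chr6:41546131-41546380, chr3:181711675-181711924 and chr6:21593501-21593750. Capitals mark CpG dinucleotides.
FOXP4: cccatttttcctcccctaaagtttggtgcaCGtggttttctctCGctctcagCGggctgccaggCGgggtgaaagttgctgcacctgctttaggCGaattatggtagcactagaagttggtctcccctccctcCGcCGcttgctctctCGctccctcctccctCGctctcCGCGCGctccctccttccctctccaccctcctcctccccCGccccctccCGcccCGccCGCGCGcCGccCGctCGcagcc
SOX2: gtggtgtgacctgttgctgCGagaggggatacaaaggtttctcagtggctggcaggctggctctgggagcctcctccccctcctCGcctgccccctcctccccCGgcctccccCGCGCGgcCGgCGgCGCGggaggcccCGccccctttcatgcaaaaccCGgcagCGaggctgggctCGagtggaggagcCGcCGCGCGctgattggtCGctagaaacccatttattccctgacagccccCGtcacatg
SOX4: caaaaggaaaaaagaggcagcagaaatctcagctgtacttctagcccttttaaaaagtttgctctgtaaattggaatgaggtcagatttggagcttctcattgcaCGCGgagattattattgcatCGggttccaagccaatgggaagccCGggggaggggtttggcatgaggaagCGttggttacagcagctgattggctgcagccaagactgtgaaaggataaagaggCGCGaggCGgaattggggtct

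The window of *FOXP4* held 21 CpG dinucleotides, that of *SOX2* held 20 and that of *SOX4* held 8, against a median of 24 over the 32 members with a sequence and of 11 over 27305 promoters. In windows from 250 bases before to 50 bases after the start, the forkhead motif GTAAACA was found on either strand in 2 of 32 member promoters (*FOXO4* and *SOX12*, 6.25%) and in 3.41% of all promoters. The SOX motif AACAATG was found in 1 (*SOX5*, 3.12%) and in 3.38% of all promoters. None of the 3 windows shown holds either motif.

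*SOX2*, a SOXB1 factor of pluripotent cells and neural progenitors, had 421, 480 and 444 normalized counts in the knockdown and 245, 207 and 304 in the control cultures. All knockdown values lay above all control values. The means were 449 ± 29.5 and 252 ± 48.6 (SD, n = 3), a 1.78-fold rise with a log2 fold change of 0.83 (SE 0.15, edgeR adjusted p 0.00591). *SOX2* (ENSG00000181449.4) is a single exon at chr3:181711925-181714436, plus strand, inside the long noncoding gene *SOX2-OT* on the same strand, which had from 0 to 8 counts per culture. *SOX3*, the other SOXB1 gene expressed here, had 62, 74 and 78 counts against 30, 71 and 46, with overlapping normalized values. Its log2 fold change of 0.63 (SE 0.27) did not pass the test at an adjusted p of 0.166, and it was 0.91 with an adjusted p of 0.0318 without control replicate 2.

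*SOX9*, a SOXE factor of cartilage, gonad and ureteric tip cells and a CAKUT gene, had 608, 871 and 818 normalized counts in the knockdown and 459, 441 and 567 in the control cultures. Knockdown replicate 1 lay close to control replicate 3, and the groups did not overlap. The means were 766 ± 139 and 489 ± 68.1 (SD, n = 3), a 1.57-fold rise with a log2 fold change of 0.65 (SE 0.15, edgeR adjusted p 0.0213). The adjusted p was highest, at 0.107, without knockdown replicate 2. *SOX9* (ENSG00000125398.8, chr17:72121020-72126416, plus strand, 3 exons) lies within *SOX9-AS1* on the opposite strand, which had from 1 to 8 counts per culture. *SOX8*, also of the SOXE subfamily, had from 25 to 36 counts and a log2 fold change of -0.09 (SE 0.28).

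*SOX4*, a SOXC factor of progenitor cells in many tissues, had 3897, 4548 and 4597 normalized counts in the knockdown and 6485, 6532 and 5113 in the control cultures. All knockdown values lay below all control values, control replicate 3 being the lowest control. The means were 4347 ± 391 and 6043 ± 806 (SD, n = 3), a log2 fold change of -0.48 (SE 0.11, edgeR adjusted p 0.0230). The call was lost without any 1 of the 3 knockdown replicates or control replicate 1, with an adjusted p of up to 0.117. The minus-strand noncoding gene ENSG00000283480 covers 1843 bases of *SOX4* (ENSG00000124766.7, chr6:21593751-21598619, plus strand, a single exon), with the same limit on strand as above.

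The other SOXC genes, which act with *SOX4* in neural and mesenchymal progenitors, differed in sign. *SOX11* had 345, 624 and 532 normalized counts in the knockdown and 730, 722 and 579 in the control cultures, with a log2 fold change of -0.44 (SE 0.19, edgeR adjusted p 0.164). *SOX12* had 924, 976 and 945 in the knockdown and 581, 1050 and 596 in the control cultures, so that control replicate 2 alone lay above the knockdown values. Its log2 fold change was 0.35 (SE 0.20, edgeR adjusted p 0.303) with all cultures, and 0.69 with an adjusted p of 0.000193 without control replicate 2. The noncoding gene *NRSN2-AS1* covers the whole of *SOX12* on the opposite strand. *SOX11* shares 5166 bases with the noncoding gene ENSG00000242540 on the same strand, where reads may have been assigned to either. Whether *SOX4*, *SOX11* and *SOX12* differ from each other was not tested.

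**Figure D4:**
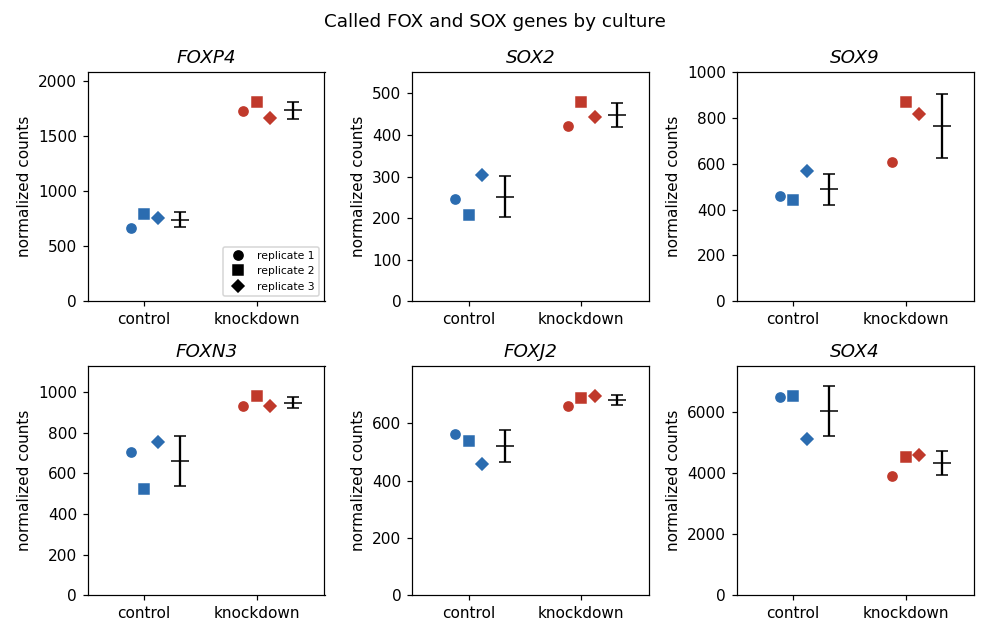
Normalized counts of the 6 called members in each culture, with control in blue, knockdown in red, a marker shape for each replicate number, and the mean with its SD to the right of the points. The vertical axes start at 0. In *FOXP4* the lowest knockdown value is 1663 and the highest control value 795, while in *SOX9* the highest control value is 567 and the lowest knockdown value 608.

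The remaining calls were smaller. *FOXN3* (ENSG00000053254.16, chr14:89124871-89619149, minus strand), a repressor linked to cell cycle checkpoints, had 931, 981 and 934 normalized counts in the knockdown and 705, 524 and 755 in the control cultures. Its log2 fold change was 0.52 (SE 0.13, edgeR adjusted p 0.0297), with control replicate 2 as the lowest culture, and it was 0.38 with an adjusted p of 0.0130 without that culture. The call was lost without knockdown replicate 1, 2 or 3 or control replicate 1, with an adjusted p of up to 0.118. *FOXN3* also overlaps the noncoding gene ENSG00000259053 on the same strand over 206838 bases. *FOXJ2* (ENSG00000065970.9, chr12:8032716-8055517, plus strand), an activator of the FOXJ subfamily, had 661, 688 and 695 against 563, 537 and 457 normalized counts. At a log2 fold change of 0.39 (SE 0.11), its edgeR adjusted p 0.0496 lay just under the threshold, and it lost its call in 6 of 15 alternative settings. For its close relative *FOXJ3* the value was 0.10 (SE 0.09), which was not called.

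*FOXN2*, of the same subfamily as *FOXN3*, had values of the other sign. It had 337, 504 and 527 normalized counts in the knockdown and 685, 602 and 640 in the control cultures, which did not overlap. The log2 fold change of -0.49 (SE 0.16) missed the threshold at an edgeR adjusted p 0.0710, and the gene was called lower in 6 of 15 alternative settings, among them the replicate block (adjusted p 0.0398) and the fit without control replicate 2 (0.0223). *FOXN4*, a factor of retinal and spinal progenitors, had 64, 67 and 56 counts against 114, 129 and 47. Its log2 fold change of -0.55 (SE 0.30) was not called, and it was -0.85 with an adjusted p of 0.0177 without control replicate 3.

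None of the 5 FOXO members passed the test. *FOXO3*, the most abundant of them and a mediator of stress resistance and cell death, had 2275 ± 108 normalized counts in the knockdown and 2329 ± 127 in the control group (SD, n = 3), a log2 fold change of -0.03 (SE 0.09). *FOXO1*, a regulator of glucose metabolism, had 515 ± 31.2 and 575 ± 37.7, a log2 fold change of -0.16 (edgeR adjusted p 0.384). *FOXO4* had 559, 516 and 492 normalized counts in the knockdown and 432, 398 and 446 in the control cultures. These did not overlap, with a log2 fold change of 0.30 (SE 0.11, edgeR adjusted p 0.116). *FOXO6* had a log2 fold change of -0.46 with all cultures and -0.04 without control replicate 2. *FOXO3B*, a copy of *FOXO3* on chromosome 17, had 496, 516 and 510 against 749, 600 and 642 normalized counts. Its log2 fold change of -0.39 (SE 0.11, edgeR adjusted p 0.0555) is uncertain, since *FOXO3* and *FOXO3B* share sequence and reads may have been assigned to either, and since it overlaps *ZNF286B* on the same strand. It was called lower in 5 of 15 alternative settings.

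The genes around the FOXO proteins were described from lists of known regulators and targets. In the lists that follow, counts of called genes are read against the 5.40% higher and 4.64% lower among all genes tested. Of 20 tested kinases, phosphatases and subunits upstream of FOXO, 2 were higher and 3 lower. *AKT1*, which phosphorylates FOXO proteins, had a log2 fold change of 0.41 (edgeR adjusted p 0.0139) and *PHLPP1*, a phosphatase that acts on AKT, one of 0.33 (adjusted p 0.0465). Both calls were lost without knockdown replicate 1, 2 or 3 or control replicate 1, and that of *PHLPP1* also with the replicate block (adjusted p 0.143). *PIK3R3*, a regulatory subunit of phosphoinositide 3-kinase, fell from 1586 ± 130 to 888 ± 87.9 normalized counts. *SGK1*, a kinase that also phosphorylates FOXO proteins, fell from 160 ± 10.5 to 87.7 ± 21.8. *MAPK8*, a stress-activated kinase, was also called lower without control replicate 2 (-0.43), and between 1 and 4 genes of the list were lower when 1 culture was left out. The median over the list was -0.07 on the log2 scale, against -0.02 over all genes tested.

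Of 20 tested binding partners and modifiers of FOXO proteins, 2 were higher and 2 lower. *SETD7*, a methyltransferase with FOXO3 among its substrates, rose from 820 ± 111 to 2363 ± 81.5 normalized counts (log2 fold change 1.53), and *YWHAG*, a 14-3-3 protein, from 3492 ± 333 to 4947 ± 156. *MDM2*, a ubiquitin ligase, and *CTNNB1*, beta-catenin, fell, with log2 fold changes of -0.50 and -0.32. Both of these calls were lost without knockdown replicate 1, 2 or 3 or control replicate 1, and that of *CTNNB1* also with the replicate block (adjusted p 0.117). Without control replicate 2, 3 genes were higher and 6 lower, with *SIRT2* gained above and *YWHAB*, *SKP2*, *USP7* and *XPO1* below 0. Of 32 tested FOXO target genes, 2 were higher and 5 lower, and 25 had a negative log2 fold change, as had 7837 of all 14877 genes tested. The number lower ran from 2 without knockdown replicate 3 to 8 without control replicate 2, where *SESN3*, *BNIP3L* and *CCND2* were gained. It was 9 without control replicate 3 and with the GC and length correction. The background moved as well. Over all genes, 233 of 15086 were lower without knockdown replicate 3 and 1238 of 15083 without control replicate 2. The counts were 994 of 15137 without control replicate 3 and 1395 of 14465 with the GC and length correction. *C10orf10*, an autophagy regulator also named *DEPP1*, fell from 120 ± 30.4 to 50.2 ± 10.4 normalized counts, and *CCND1*, cyclin D1, from 1780 ± 50.7 to 1164 ± 34.0. *SESN1*, a stress-induced inhibitor of growth signalling, and *MAP1LC3B*, an autophagosome protein, fell, with log2 fold changes of -0.54 and -0.41. *RBL2*, a pocket protein of the retinoblastoma family, rose from 1642 ± 194 to 2765 ± 104. The median of the targets was -0.26 on the log2 scale. *CCND1* is known as a gene that FOXO proteins repress and the other 4 named here as genes that they activate, so the list mixes directions.

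Among 14 tested partners of FOXP proteins, 3 were higher and 1 lower. *HDAC1*, *MTA1* and *GATAD2A*, subunits of the NuRD histone deacetylase complex that FOXP proteins recruit, had log2 fold changes of 0.77, 0.63 and 0.41. The other NuRD subunits of the list, *HDAC2* (-0.03, edgeR adjusted p 0.849) and *GATAD2B* (0.04, 0.833), were not called. The number higher was 2 without knockdown replicate 1, 2 or 3 or control replicate 1, and the number lower ran from 0 to 4 over all settings. Of 12 tested FOXK partners, *OGT*, which adds N-acetylglucosamine to proteins, was lower (log2 fold change -0.49) and none was higher. The FOXK genes themselves, which act with the deubiquitinase *BAP1*, had log2 fold changes of 0.19 for *FOXK2* and 0.14 for *FOXK1*. *FOXK2* had 3065, 2996 and 2968 against 2586, 2870 and 2454 normalized counts, without overlap, and was called at an adjusted p of 0.0297 without control replicate 2.

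Of 17 tested DNA-binding and import partners of SOX proteins, *POU3F3*, a POU factor of brain and kidney, was higher (log2 fold change 0.50, edgeR adjusted p 0.0241) and none was lower. That call was lost without knockdown replicate 2 or 3 or control replicate 1, and without control replicate 2 *TEAD1*, a factor of the Hippo pathway, was lower (-0.30, adjusted p 0.013). Of 9 tested TCF/LEF factors and partners of beta-catenin, which share the HMG box fold with SOX proteins or compete with them, *TCF7L2* (-0.51) and *CTNNB1* (-0.32, also counted above) were lower. Of 22 other HMG-box genes, *SMARCE1*, a subunit of the SWI/SNF complex (0.76), and *HMG20B* (0.51) were higher. Without control replicate 2, *HMGB1* (-0.44), *TFAM* (-0.40) and *HMGB2* (-0.28) were called lower in addition. In that fit 1238 of all 15083 genes tested were lower, against 690 of 14877 with all cultures. The medians of the 3 lists were 0.15, -0.13 and 0.04 on the log2 scale.

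The developmental FOX genes of the A to I and Q subfamilies gave no call. *FOXC1*, also a CAKUT gene, had 2323, 3090 and 3034 normalized counts in the knockdown and 2432, 3213 and 2973 in the control cultures. The groups fully overlapped, with a log2 fold change of -0.03 (SE 0.13, edgeR adjusted p 0.913). *FOXC2* had 31, 27 and 30 counts against 35, 74 and 48, and its normalized counts did not overlap. Its log2 fold change was -0.75 (SE 0.28, edgeR adjusted p 0.113), and -0.50 without control replicate 2. *FOXF1*, a factor of visceral mesenchyme, had 125, 144 and 143 against 159, 244 and 174 normalized counts, without overlap, and a log2 fold change of -0.49 (SE 0.18, edgeR adjusted p 0.117), which was -0.28 without control replicate 2. *FOXA1*, a pioneer factor of endoderm, also did not overlap, at 350 ± 12.8 and 400 ± 18.6 (log2 fold change -0.19, edgeR adjusted p 0.305).

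In several GC-rich members the fitted value changed sign without control replicate 2. *FOXD1* had 234, 290 and 333 normalized counts in the knockdown and 193, 752 and 259 in the control cultures, a log2 fold change of -0.50 (SE 0.49) that became 0.33 without control replicate 2. *FOXD3*, a neural crest factor, had 42, 31 and 31 counts against 31, 98 and 24, and its value turned from -0.45 to 0.33. *SOX18*, an endothelial factor, had 18, 19 and 15 counts against 14, 76 and 10, and its value turned from -0.82 to 0.53. *FOXF2* turned from -0.16 to 0.22 and *FOXQ1* from -0.14 to 0.32. Of the 43 members, 8 changed sign in this way, the others being *FOXC1*, *FOXP2* and *SOX6* with values near 0. None of these 8 was called in either fit. *FOXA2* (0.04 and 0.56) and *FOXD2* (0.02 and 0.31) kept their sign. With the GC and length correction on all 6 cultures, *FOXD1* had -0.35, *FOXD3* -0.33, *SOX18* -0.59, *FOXF2* -0.08 and *FOXQ1* -0.07. In that fit *FOXC1* had -0.02, *FOXP2* 0.07 and *SOX6* -0.02. The part of GC content in the sign changes was not tested. The remaining uncalled FOX genes had log2 fold changes from -0.45 for *FOXD4* to 0.22 for *FOXB1*, with *FOXE1* and *FOXI3* between them. *FOXD4* has near-identical copies, so its 37 to 79 counts are uncertain.

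The SOXD genes *SOX5*, *SOX6* and *SOX13*, which lack a transactivation domain and act with SOXE factors in cartilage, had log2 fold changes of 0.32, 0.02 and 0.14, and none was called. *SOX7*, the most abundant SOXF gene here, had 75, 69 and 90 counts against 112, 107 and 99 and a log2 fold change of -0.37 (SE 0.19, edgeR adjusted p 0.247). *SOX15*, the only SOXG gene, had a value of -0.03.

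**Figure D5:**
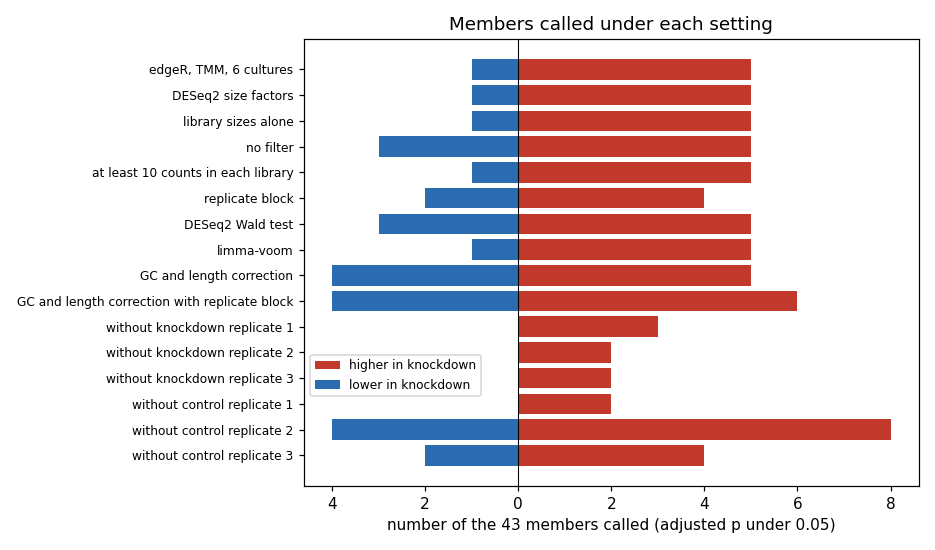
Number of the 43 members called higher (red, to the right) and lower (blue, to the left) under each setting, with the edgeR fit on all 6 cultures at the top. The counts range from 2 higher and 0 lower to 8 higher and 4 lower without control replicate 2.

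The remaining 25 matching symbols had under 10 counts in some culture, so a gene that is silent in either group could not become a member. Of these, 7 had no count in any culture: *SOX1*, *SOX14*, *SOX17*, *FOXI1*, *FOXI2*, *FOXR2* and *FOXS1*. A count of 0 allows a level of up to 0.178 to 0.216 CPM per culture (3 counts), which covers counting error only. *SOX17* is also a CAKUT gene. Only *SOX21*, with 5 to 19 counts, and *FOXP3*, with 5 to 25, passed the filter on low counts, and neither was called. The other 16 had at most 15 counts in any culture.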

How the data were processed

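RNA was sequenced from 3 knockdown and 3 control HEK293 cultures, described as biological replicates. The authors deposited raw counts per gene symbol, not normalized. Reads were trimmed (Trim Galore 0.6.6), freed of ribosomal RNA, aligned with STAR 2.7.9a to hg38 and counted with featureCounts 2.0.1, with these versions taken from the submitters' processing notes. Annotation, strand and multi-mapping settings are not given in the sources used here.

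The quasi-likelihood test of edgeR 4.0.16 (R 4.3.3) was run after filterByExpr and TMM scaling, with robust dispersions and p-values adjusted by Benjamini-Hochberg over 14877 genes, threshold 0.05. The SE was derived from this test, as the absolute log2 fold change divided by the square root of the F statistic. Normalized counts are scaled to the mean effective library size. Positions, exon lengths and GC content come from GENCODE 44 on the same build, hg38 (23161 of 26485 names matched by symbol, 1349 by an older name), promoters from RefSeq. Alternatives were DESeq2 1.42.0, limma-voom 3.58.1, other scalings and filters, a replicate block, GC and length correction (loess, span 0.3) and each culture left out. Scripts were tested on simulated data. Members and lists were chosen with earlier results of these data known. Members called, CAKUT members and the most abundant member of each family are given in full, and at most 5 called genes of each list are named by smallest p. Genes of the lists named for a call gained without control replicate 2, and *HDAC2* and *GATAD2B*, were added after their values were seen. An exact permutation test of 3 against 3 cannot go below 0.10. Of the 43 members, 1 enters all counts and medians but is not reported here singly, nor are some genes of the lists. Figures used matplotlib 3.10.9.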

Additional observations from a re-analysis of the deposited data

How the results depend on the processing

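*FOXP4* (log2 fold change 1.16 to 1.29, adjusted p of 1.68e-22 to 0.000982) and *SOX2* (0.7091 to 0.9958, 2.5e-05 to 0.0366) kept their call in all 15 alternative settings, *SOX9* in 12, *FOXN3* and *SOX4* in 11 and *FOXJ2* in 9 (edgeR, limma-voom or DESeq2). DESeq2's size factors, library sizes alone, limma-voom and a minimum of 10 counts called the same 6 members. Members called lower numbered 3 without a filter and 3 under DESeq2, 4 with the GC and length correction and 4 when it was joined to the block. Over all genes, 848 of 21131 were lower without a filter and 853 of 14877 under DESeq2. The edgeR fit on all 6 cultures had 690 of 14877 lower. Leaving out 1 culture gave 2 to 8 members called higher and 0 to 4 lower, the highest without control replicate 2, and 289 to 1274 genes higher and 233 to 1238 lower over all genes. The GC and length correction gave 1255 higher and 1395 lower genes, and 1147 lower with the block. With the replicate number as a block, 4 members were higher and 2 lower, *FOXN2* being gained and *FOXJ2* lost. Over all genes, 714 of 14877 were higher and 619 lower with the block. Cultures with the same replicate number did not deviate together (r of -0.199, -0.112 and -0.044 for replicates 1, 2 and 3). Cultures with unlike replicate numbers had r from -0.074 to 0.163. With 3 cultures in each group, these values cannot show whether cultures were handled in pairs. The knockdown and control cultures that both carry culture number 1 had an r of -0.012. The cause of these shifts was not tested.

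Signs turned in uncalled members. When 1 culture was left out, the log2 fold change ranged from -0.15 to 0.31 for *FOXD2*, -0.75 to 0.33 for *FOXD3*, -0.0734 to 0.12 for *SOX6*, -0.28 to 0.0494 for *SOX8*, -0.17 to 0.0861 for *SOX15*, -0.24 to 0.56 for *FOXA2*, -1.22 to 0.53 for *SOX18*, -0.83 to 0.33 for *FOXD1*, -0.33 to 0.32 for *FOXQ1*, -0.35 to 0.22 for *FOXF2*, -0.14 to 0.0911 for *FOXC1*, -0.0789 to 0.0041 for *FOXO3*, -0.0392 to 0.16 for *FOXP2* and -0.087 to 0.24 for *FOXE1*. The GC and length correction gave -0.0216 for *SOX6*, or -0.022 with the block.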
